A study of Drosophila melanogaster with 2 samples.

Results

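The piRNA pathway and germ plasm genes described here are 10 Drosophila melanogaster genes, vas, aub, piwi, AGO3, tud, krimp, tej, spn-E, qin and zuc, chosen by name out of 13968 protein-coding genes on the 7 assembled chromosome arms. A gene counted as bound where the summit of a listed peak lay within 500 bp of any of its annotated starts, and a summit inside the gene was counted separately. The peaks come from chromatin immunoprecipitation followed by sequencing (ChIP-seq) with an anti-GFP antibody on whole embryos aged 0 to 24 h of the line tna-GFP, in which the gene tna is fused to eGFP. The 2 samples are biological replicates 1 and 2 of this 1 group, and both carry the tna-eGFP fusion. Chromatin was sonicated to 200 to 800 bp. The product of tna, tonalli, is known as a zinc finger protein of the trithorax group. No library from untagged embryos was analysed here, so no background of the antibody stands beside any value. Whole embryos mix all tissues, in which germ cells are a small minority, and a peak in few cells cannot be told apart from weaker binding in many cells.

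PIWI-interacting RNAs (piRNAs) are small RNAs that guide PIWI proteins to transposon transcripts, mainly in the gonads. In the fly germ line, aub and AGO3 encode the PIWI proteins that cut transposon and piRNA precursor RNAs in turn in the ping-pong cycle, and piwi encodes the nuclear PIWI protein that directs transcriptional silencing. Ping-pong takes place in the nuage, a granule around the nucleus built from the helicase of vas, the Tudor domain proteins of tud, krimp, tej and qin and the helicase and Tudor domain protein of spn-E, while zuc encodes the mitochondrial nuclease that makes phased piRNAs. The products of vas, tud and aub are also part of the germ plasm, the posterior cytoplasm of the egg that founds the germ cells.

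The deposited conservative list, which holds peaks reproducible between both replicates, had 2580 peaks with a median signal of 169 and a range of 2.08 to 1797. Of these peaks, 2217 had a summit within 500 bp of an annotated start of any gene type kept. A second list from both replicates had 3500 peaks, the replicate 1 list 2217 and the replicate 2 list 2669. The ranked lists searched, 1 from each replicate and 1 from both, hold weaker candidates along with the called peaks and had 110091 to 126713 peaks each. A second ranked list from both replicates was not used for these genes. The irreproducible discovery rate (IDR) is low where a peak ranks high, and alike, in 2 lists. Its −log10 value had to reach 2 (an IDR of at most 0.01) for the conservative list. The ranked list of a single replicate carries IDR values of its own, which are not read here as agreement between replicates 1 and 2. Signal is the value that the authors deposited for each peak, on a scale of its own in each list, so signals were ranked only within a list. The lists hold no read counts. Depth is therefore unknown for both libraries, and no error bar could be put on a signal. With 2 replicates in 1 group, no test across samples was possible, and the replicate values are given side by side.

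In the conservative list, 3 of the 10 genes (tud, krimp and tej) had a summit within 500 bp of a start, against 18.2% of all protein-coding genes. All 3 encode Tudor domain proteins of the nuage, but so do qin and spn-E, which had no such summit. None of the 3 PIWI genes had one, and neither did vas, spn-E, qin or zuc. Counting summits inside the gene added vas and qin, which made 5 of 10 genes, against 19.7% of all protein-coding genes. Only at krimp and tej was the gene's own start the nearest annotated start to the summit, which made 2 of 10 genes, against 13.8% of all protein-coding genes. With 10 genes chosen by name, these counts are a description and were not tested. The conservative summits at tud and qin lay inside tRNA genes, and the summit in vas lay at a downstream start of vig. In the replicate 1 list 2 of the 10 genes had a summit at a start (tej and tud), against 16.4% of all protein-coding genes. The replicate 2 list had 3 (tej, tud and krimp), against 17.7%, and the second list from both replicates had the same 3, against 22.2%. The outermost summits counted were those of tej at 455 bp and tud at 427 bp, and widening the window to 1000 bp changed the call of 0 of the 10 genes, which left 3 of 10 called, against 20.5% of all protein-coding genes. With a window of 250 bp krimp alone of the 10 was called, against 15.9% of all protein-coding genes, and krimp alone had a peak interval over its start, against 14.5%. Of the peaks with an IDR of at most 0.001, 2 of the 10 genes had one at a start (tej and tud), against 9.23% of all protein-coding genes. With a q-value of at most 0.05 the 3 genes were called as before, against 13.9%, and likewise with 1 peak per replicate pair, against 18.1%.

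The strongest peak among the 10 genes stood upstream of tej (tejas, FBgn0033921, 2R 14300103 to 14302353, minus strand), whose Tudor and LOTUS domain protein binds the helicase of vas in the nuage. The peak spanned 274 bp (2R 14302664 to 14302937) with a conservative signal of 429, rank 202 of 2580, within the top 7.83% of the list. Its −log10 IDR was 4.76 and its −log10 q-value 2.77. The signal was 189 in replicate 1 (rank 350 of 2214 peaks on the arms) and 249 in replicate 2 (rank 122 of 2669). Both replicates therefore called the peak, with summits 441 bp upstream of the tej start in replicate 1 and 464 bp in replicate 2, against 455 bp in the conservative list. A distance of this size was uncommon: of 2072 conservative summits within 500 bp of a protein-coding start, 36 (1.74%) lay more than 400 bp away and 1600 (77.2%) lay within 100 bp. In the ranked lists searched, no peak had its summit within 100 bp of the tej start itself. The next start on the far side, that of Shrm, was 5789 bp from the tej start, so no other annotated gene stood near the summit. In the order of conservative signal the promoter peaks next to that of tej were those of CG7914 (signal 429, rank 201) and Neb-cGP (signal 428, rank 203), which had their summits 43 and 11 bp from the start.

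At tud (tudor, FBgn0003891, 2R 21183322 to 21192913, plus strand), whose product carries many Tudor domains and is needed to assemble the germ plasm, the peak near the start belonged to another gene by distance. It spanned 2R 21182749 to 21182997 with a conservative signal of 253, rank 669 of 2580, and a −log10 IDR of 3.7. Its summit lay 427 bp upstream of the tud start and 39 bp inside the glycine tRNA gene tRNA:Gly-GCC-1-13 (FBgn0011872, 2R 21182856 to 21182926, plus strand). The tryptophan tRNA gene tRNA:Trp-CCA-2-6 (FBgn0050209, 2R 21182678 to 21182749, minus strand) stood next to it. The signal was 119 in replicate 1 and 158 in replicate 2, with summits 476 and 500 bp upstream of tud, so the replicate 2 summit lay at the very edge of the window. Relative to the glycine tRNA start, the summits lay 10 bp upstream in replicate 1 and 34 bp upstream in replicate 2. Short genes of this kind occur in identical copies: 13 annotated genes had the same sequence as the glycine tRNA gene, and 6 of them had a conservative summit, while for the tryptophan tRNA gene the figures were 5 of 6. Over all 290 annotated tRNA genes, 159 (54.8%) had a conservative summit. How the authors treated reads that match several copies is not given in the sources used here, so the signal at any 1 copy is uncertain.

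A weaker peak stood at the start of tud itself, and the lists differed on it. It was called in the replicate 2 list with a signal of 74.8 and a summit 38 bp upstream of the start. In replicate 1 it appeared only in the ranked list, with a signal of 40.7, a summit 79 bp upstream and a −log10 IDR of 0.182. The second list from both replicates held it with a signal of 103 and a summit 96 bp upstream, and its −log10 IDR in the ranked list from both, 1.97, fell just short of the conservative threshold of 2.

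Closest to a gene's own start was the summit at krimp (krimper, FBgn0034098, 2R 16238103 to 16240722, minus strand), whose Tudor domain protein brings AGO3 into the nuage and sequesters it there until it is loaded. The peak (2R 16240553 to 16240962) had a conservative signal of 140.1, rank 1652 of 2580, a −log10 IDR of 2.61 and a summit 36 bp upstream of the start. The signal was 86.4 in replicate 2, where the peak was called 50 bp upstream, and 58.8 in replicate 1, where it was ranked 40 bp upstream with a −log10 IDR of 1.93 and so stayed out of the thresholded list. The krimp call thus rests on replicate 2 and on the pairing of both replicates.

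**Figure D1:**
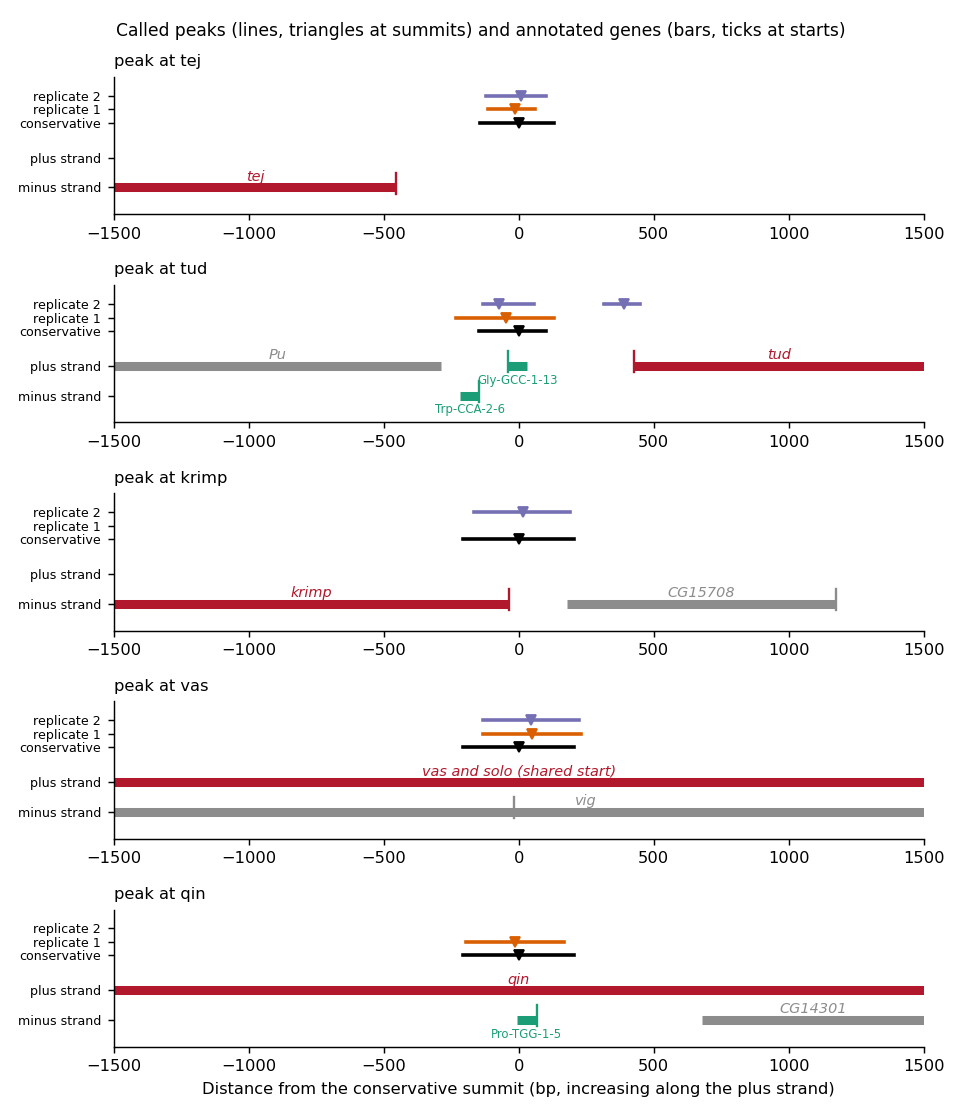
Called peaks (horizontal lines, triangles at summits) in the replicate 2, replicate 1 and conservative lists at the 5 genes with a conservative summit, over annotated genes (bars, ticks at starts), with the distance in bp from the conservative summit on the horizontal axis. The tej summit lay 455 bp outside its gene with no other gene near, and the krimp summit lay 36 bp from its start. The conservative tud and qin summits lay inside tRNA genes, and the vas summit lay 16 bp from a downstream start of vig.

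Inside vas (vasa, FBgn0283442, chr2L:15061656-15074311, plus strand), the DEAD-box RNA helicase of nuage and germ plasm, the bound site belonged by distance to a gene within a gene. The peak (chr2L:15067889-15068298) had a conservative signal of 173, rank 1241 of 2580, and a −log10 IDR of 3.02. The signal was 96.8 in replicate 1 and 95.8 in replicate 2, and both replicates called the peak. Its summit lay in an intron of vas, 6438 bp downstream of the vas start and 16 bp upstream of a start of vig (vasa intronic gene). This gene is read from the opposite strand and encodes a component of the RNA-induced silencing complex. Annotated vig (chr2L:15062931-15070316) extends further upstream, so the start named here is its downstream start and the summit lay inside vig. In the replicate lists the summits lay 65 bp (replicate 1) and 62 bp (replicate 2) upstream of the same vig start. This downstream start of vig is printed because it, and not the start of vas, lay under the peak. The sequence is chr2L:15068049-15068188 of dm6, minus strand, read from 110 bases before the start to 30 bases after it, with the first 30 transcribed bases in capitals.
vig: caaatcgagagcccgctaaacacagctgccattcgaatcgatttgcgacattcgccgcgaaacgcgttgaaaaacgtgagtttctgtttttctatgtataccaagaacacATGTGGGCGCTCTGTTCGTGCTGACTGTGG

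The start of vas itself is shared with solo, a gene of sister chromatid cohesion in meiosis. A peak there was ranked in each ranked list searched and called in no thresholded list. Its signal was 41.3 in replicate 1 (summit 32 bp upstream, −log10 IDR 0.898) and 41 in replicate 2 (49 bp upstream, −log10 IDR 0.182). In the ranked list from both replicates its signal was 71.9 with a −log10 IDR of 1.28, and the median over the 10670 protein-coding genes with a ranked peak at a start in that list was 67.7. The vas start thus stood near the middle of the ranked genes and below the threshold.

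Within qin (FBgn0263974, chr3R:18591027-18650137, plus strand, 59.1 kb), whose product joins Tudor domains to a RING finger and keeps ping-pong between aub and AGO3, the peak again lay on a tRNA gene. It spanned chr3R:18628267-18628676 with a conservative signal of 162, rank 1384 of 2580, and a −log10 IDR of 2.52. The signal was 98.8 in replicate 1, which called the peak, and 63.3 in replicate 2, where it was only ranked with a −log10 IDR of 0.174. The summit lay in an intron 37445 bp from the qin start and 66 bp from the start of the proline tRNA gene tRNA:Pro-TGG-1-5 (FBgn0051228, chr3R:18628467-18628538, minus strand), inside the 72 bp tRNA gene. In the replicate 1 list the summit lay 79 bp from that tRNA start, just beyond the end of the tRNA gene. Of 5 identical copies of this tRNA gene, 4 had a conservative summit, so the signal at this copy is uncertain in the same way. The tRNA gene is printed in capitals with 40 bases on each side (chr3R:18628427-18628578 of dm6, minus strand), since it is the annotated feature under the qin summit.
tRNA:Pro-TGG-1-5: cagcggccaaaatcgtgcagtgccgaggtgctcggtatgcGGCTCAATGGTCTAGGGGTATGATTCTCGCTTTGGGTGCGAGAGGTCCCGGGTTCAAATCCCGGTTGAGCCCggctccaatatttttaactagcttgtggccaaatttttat

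At the start of qin no list had a called peak. The strongest ranked signals there were 2.66 in replicate 1 and 29.3 in replicate 2, against medians of 29.7 and 42.3 over the protein-coding genes with a ranked peak at a start in those lists, 11361 in replicate 1 and 10731 in replicate 2. The ranked list from both replicates gave 62.5, against a median of 67.7, with a summit 436 bp upstream and a −log10 IDR of 0.547. The qin start thus stood below the median in all 3 ranked lists searched, and near it in the list from both.

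None of the 3 genes of PIWI proteins had a called peak in any thresholded list, at a start or in the body. At piwi (FBgn0004872, 2L 10982205 to 10987420, minus strand) the replicate 2 list ranked a peak of signal 24.4 at 122 bp downstream of the start, and replicate 1 ranked none there. At aub (aubergine, FBgn0000146, 2L 10997819 to 11001476, minus strand) the ranked signal was 4.35 in replicate 1, at 490 bp upstream, and 42 in replicate 2, at 344 bp downstream of a start, so the replicates did not rank the same site. The second list from both replicates held a peak of signal 86.4 some 934 bp upstream of aub, rank 3141 of 3500. That summit was 338 bp from the start of lectin-33A, the divergent neighbour whose start stands 596 bp from that of aub, and it was not in the conservative list. The starts of piwi and aub lie 13.7 kb apart, and the start of CG12253 stands 386 bp from that of piwi.

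AGO3 (FBgn0250816, 3L 23554593 to 23689640, plus strand, 135 kb) had no ranked peak within 500 bp of either of its starts in any ranked list searched. The gene lies toward the centromere of 3L, where few peaks were called in the conservative and replicate lists and the replicates differed in how many were ranked. Beyond 23 Mb on that arm, none of the 36 protein-coding genes had a conservative summit at a start, against 18.2% of all protein-coding genes. Of all ranked peaks on 3L, 784 of 25152 lay beyond 23 Mb in replicate 1, 9 of 21041 in replicate 2 and 17 of 21542 in the list from both. Inside AGO3 itself, replicate 1 ranked 25 peaks, the highest of signal 24.7, and replicate 2 ranked 0. At AGO3, a start without binding and a region with few called peaks cannot be told apart.

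The helicase gene spn-E (spindle-E, FBgn0003483, 3R 15837419 to 15844415, plus strand) had ranked peaks only. The strongest near its start had a signal of 33.3 in replicate 1, at 300 bp upstream, and 31.6 in replicate 2, at 89 bp downstream. Its divergent neighbour ND-23, a gene of mitochondrial complex I, starts 302 bp away, and the replicate 1 summit lay nearest to that start. For zuc (zucchini, FBgn0261266, 2L 11988735 to 11989882, minus strand), replicate 2 ranked a peak of signal 41.2 at 61 bp downstream of the start, and replicate 1 ranked none within 500 bp. The divergent neighbour of zuc, dgt2, a gene of the augmin complex of the spindle, starts 54 bp away. The replicate 2 summit was thus close to both starts, and the nearest was that of zuc.

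**Figure D2:**
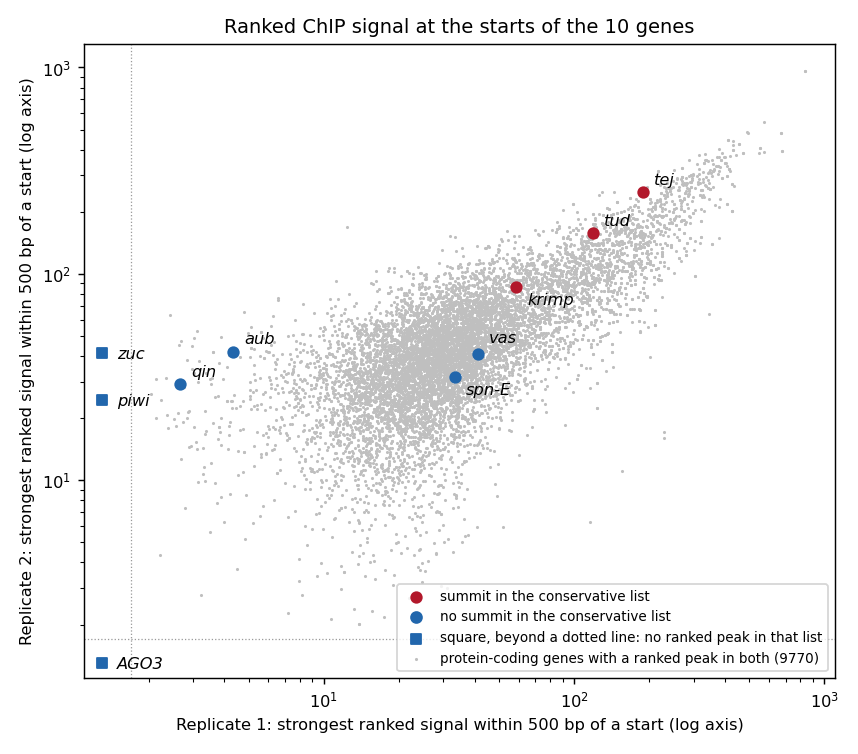
Strongest ranked signal within 500 bp of a start in replicate 1 (horizontal log axis) and replicate 2 (vertical log axis) for the 10 genes (large symbols) and for all protein-coding genes ranked in both lists (grey points), with squares beyond the dotted lines for genes with no ranked peak in a list. The genes tej (189 and 249), tud (119 and 158) and krimp (58.8 and 86.4) lie along the upper part of the cloud, vas (41.3 and 41) and spn-E (33.3 and 31.6) lie in its middle, and AGO3 has no ranked peak in either list. The tud values are those of the peak nearest to the glycine tRNA gene, and the peak at the tud start itself had 40.7 and 74.8. The spn-E values come from a different site in each replicate, 300 bp upstream in replicate 1 and 89 bp downstream in replicate 2.

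The promoters of the 10 genes, taken from 250 bases before to 50 bases after each annotated start, were searched on both strands for short elements known from fly promoters. These were the DNA replication-related element or DRE (TATCGATA, its own reverse complement, bound by DREF), its core CGATA (which overlaps every DRE match), Motif 1 (GGTCACAC, bound by M1BP), the Initiator core TCAGT and the core TAACNGT of the element bound by Ovo, a germ line regulator. A DRE stood in 3 of the 10 genes (tej, spn-E and qin), against 7.98% of 19276 promoters of protein-coding genes. The core CGATA stood in 9 of 10 (all but piwi), against 45.6% of promoters. Motif 1 was found in 2 of 10 (piwi and zuc), against 6.71%, the Initiator core in 6 of 10, against 52%, and the Ovo core in 3 of 10 (AGO3, tej and qin), against 12.9%. A gene with several starts was counted once among the 10, whereas the percentages are over single promoters. These matches are a description of letters and not of binding.

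The start regions of 7 genes follow because they show which elements these uncalled starts carry, with all DRE, CGATA and Motif 1 matches in capitals on whichever strand they stand. Each is read 5′ to 3′ in the direction of the gene from the dm6 genome, from 110 bases before the annotated start (83 for zuc) to 30 bases after it. The regions are piwi (chr2L:10987391-10987530, minus strand), aub (upstream start, chr2L:11001447-11001586, minus strand), AGO3 (upstream start, chr3L:23554483-23554622, plus strand), vas (chr2L:15061546-15061685, plus strand), spn-E (chr3R:15837309-15837448, plus strand), qin (chr3R:18590917-18591056, plus strand) and zuc (chr2L:11989853-11989965, minus strand). None of these starts had a conservative summit within 500 bp.
piwi: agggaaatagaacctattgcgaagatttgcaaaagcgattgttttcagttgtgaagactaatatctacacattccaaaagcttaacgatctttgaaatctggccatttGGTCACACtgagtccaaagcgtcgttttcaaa
aub: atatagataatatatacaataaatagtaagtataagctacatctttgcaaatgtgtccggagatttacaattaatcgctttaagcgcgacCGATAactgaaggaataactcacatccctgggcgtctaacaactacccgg
AGO3: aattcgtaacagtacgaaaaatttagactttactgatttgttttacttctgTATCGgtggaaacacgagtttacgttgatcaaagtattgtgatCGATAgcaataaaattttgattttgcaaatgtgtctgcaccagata
vas: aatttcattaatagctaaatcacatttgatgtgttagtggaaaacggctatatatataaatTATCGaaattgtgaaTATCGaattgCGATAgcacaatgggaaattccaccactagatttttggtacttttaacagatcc
spn-E: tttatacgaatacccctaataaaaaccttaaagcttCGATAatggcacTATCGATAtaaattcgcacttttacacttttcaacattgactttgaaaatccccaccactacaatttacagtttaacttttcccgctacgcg
qin: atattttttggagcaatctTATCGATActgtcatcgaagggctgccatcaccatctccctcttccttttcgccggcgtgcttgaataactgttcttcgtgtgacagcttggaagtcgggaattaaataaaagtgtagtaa
zuc: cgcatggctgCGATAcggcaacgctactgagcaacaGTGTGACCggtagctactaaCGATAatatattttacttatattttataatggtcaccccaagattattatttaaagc

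In these letters, the DRE began 62 bp before the start of spn-E and 91 bp before that of qin, and neither start was called. A DRE also began 44 bp before the start of tej, the third of the 10 genes with one. At vas, CGATA matches began 49, 34 and 24 bp before the start. Motif 1 began 2 bp before the start of piwi and 47 bp before that of zuc, where it stood on the opposite strand. Among all promoters with a DRE, 922 of 1538 (59.9%) had a conservative summit within 500 bp, against 15.8% of all promoters, and the promoters of spn-E and qin belong to the 616 with a DRE and no summit.

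**Figure D3:**
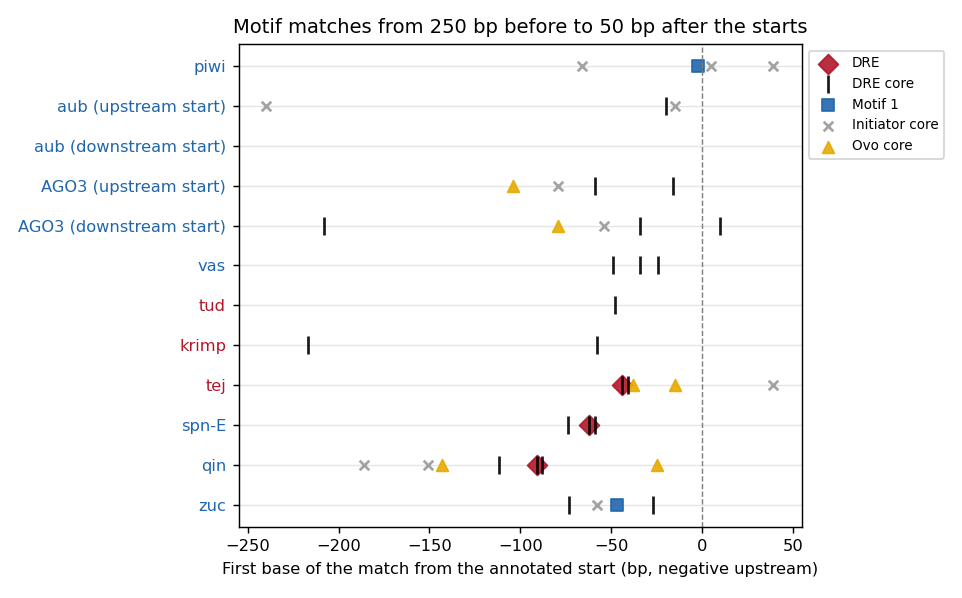
First base of each motif match in the promoters of the 10 genes, in bp from the annotated start (negative upstream), with genes that had a conservative summit at a start labelled in red and the others in blue. DRE matches stood at 44 bp (tej), 62 bp (spn-E) and 91 bp (qin) before the start, of which tej alone had a summit within 500 bp. That summit lay 455 bp upstream of the tej start, away from this DRE.

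Around the summits themselves, taken 100 bp to each side, a DRE stood at 1 of the 5 summits in or near the 10 genes, that of tej, against 23.4% of all 2580 conservative summits. Its midpoint was 9.5 bp from the summit, so this DRE is separate from the one before the tej start. The core CGATA stood at 2 of the 5 summits (tej, with 4 matches, and krimp, with 1), against 65% of all summits, and the Initiator core at 1 (tud), against 31.8%. Of the 4 matches at tej, 2 are the DRE itself, which holds the core on each strand. With 200 bp to each side the Initiator core stood at 3 of the 5 (vas, tud and tej), against 51.5% of all summits. Motif 1 stood at none of the 5, against 5.7% of all summits, and the Ovo core at none, against 9.42%. The summits on the tRNA genes near tud and in qin and the summit at vig held neither a DRE nor a CGATA within 100 bp.

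Of the other genes of these pathways, 41 were matched and 11 (26.8%) had a conservative summit within 500 bp of a start, against 18.2% of all protein-coding genes. At 7 of the 11 no other annotated start was nearer to the summit. By group, 1 of 5 other nuage genes, 2 of 10 genes of phased and mitochondrial piRNA biogenesis, 1 of 8 genes of piRNA cluster transcription and export, 3 of 8 genes of nuclear silencing and 4 of 10 other germ plasm genes had a summit. These groups are too small for their shares to be ordered.

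Among them, squ and nanos had peaks stronger than that of tej. At squ (squash, a nuage protein that binds aub) the conservative signal was 709.7, rank 33 of 2580, with 429 in replicate 1 and 272 in replicate 2, and its summit 3 bp from the start was equally near the start of grp, the checkpoint kinase gene. At nanos, the posterior determinant whose mRNA is held in the germ plasm, the signal was 592, rank 77, with 294 in replicate 1 and 278 in replicate 2. That summit lay 372 bp upstream of nanos and 54 bp from the start of CG11779, the gene nearest to it.

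The other 9 bound genes had conservative signals of 111 to 315. In nuclear silencing, arx (asterix, also called Gtsf1, a partner of piwi in the nucleus) had a signal of 315 with the start of CG6843 nearer to the summit, Panx (Panoramix, which links piwi to heterochromatin factors) had 133 at 7 bp from its own start, and wde (windei, a cofactor of the histone methyltransferase of egg) had 111. In piRNA biogenesis, fs(1)Yb, a Tudor domain gene of somatic ovary cells, had 179 with the start of CG2701 nearest, and shu, a cochaperone gene needed to load PIWI proteins, had 154 at 74 bp from its own start. In cluster export, Hel25E, an RNA helicase gene, had 158 with the start of Lam nearest. In the germ plasm, pum, the partner of nanos in translational repression, had 147, vls (valois, whose protein binds that of tud) had 145 and gcl (germ cell-less) had 119, all nearest to their own starts. Of these 9, arx, shu, Hel25E and pum were called in both replicate lists, while fs(1)Yb and gcl were called in replicate 2 alone, and Panx, wde and vls in replicate 1 alone.

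No conservative summit stood at the starts of mael, vret, Veneno (CG9684), Kots (CG9925), armi, mino, Gasz, papi, BoYb, SoYb, Hen1, Nbr, rhi, del, cuff, moon, Nxf3, Boot, Trf2, nxf2, Nxt1, egg, Su(var)2-10, ctp, osk, pgc, capu, spir, stau and csul. Some of them had peaks in other lists: Nxf3 in the replicate 2 list and the second list from both replicates, Trf2 in the replicate 2 list, and ctp in each replicate's own list.

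**Figure D4:**
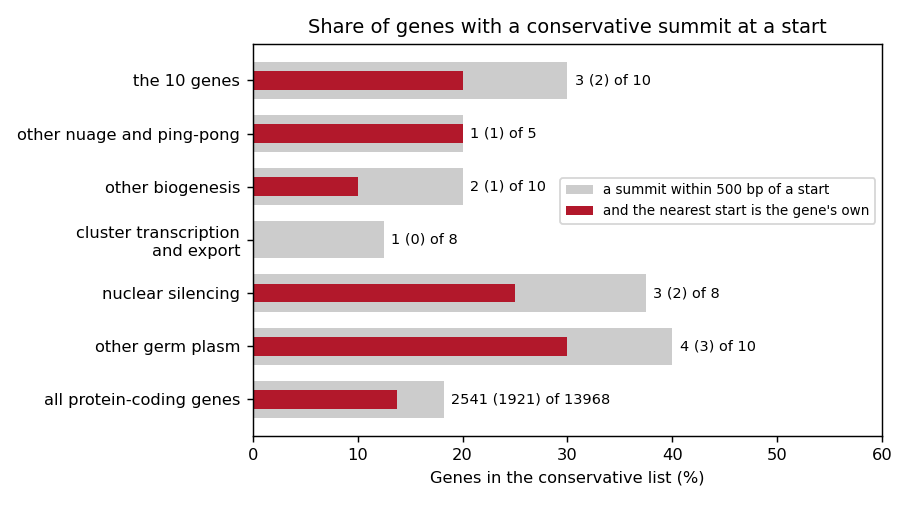
Percentage of genes with a conservative summit within 500 bp of a start (grey bars) and of genes for which no other start was nearer to that summit (red bars), for the 10 genes, for the other pathway genes by group and for all protein-coding genes, with the counts beside the bars (the red bar's count in parentheses). The 10 genes stood at 3 (2) of 10 and all protein-coding genes at 2541 (1921) of 13968, and every group but all protein-coding genes holds at most 10 genes.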

How the data were processed

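Peak lists of anti-GFP ChIP-seq on 2 biological replicates were used as the authors deposited them, on dm6 coordinates per the labels. An aligner and a peak caller were not given in the sources used here. Per the labels and notes, signal is the caller's value for a peak and never negative. The authors gave the q-value of a peak as −log10, and in the ranked lists the IDR likewise. Each replicate's own list served as the leave-one-out alternative. All per-sample columns were mapped to a sample or to both.

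Summits (peak start plus summit offset) were assigned to starts of Ensembl release 115 genes on the 7 arms, leaving out transposable elements and pseudogenes, with Python 3.11.15, pandas 2.3.3 and numpy 2.4.6, and figures were drawn with matplotlib 3.10.9. Sequences were read from the RefSeq Release 6 genome, which has the coordinates of dm6. The counting was tested on simulated data with planted peaks. Alternatives were the replicate lists, an IDR of 0.001, a q-value of 0.05, start windows of 250 and 1000 bp, peaks overlapping a start, and 1 peak per replicate pair.

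The 10 genes and the lists were chosen with earlier results of these data known. Named genes are the 10, the gene nearest each summit, other pathway genes with a summit, and the next peaks in signal order to the strongest. The neighbours grp, CG11779, CG6843, CG2701, Lam, solo, Shrm, lectin-33A, CG12253, ND-23 and dgt2 were named after their values were seen. Of 42 other pathway symbols, 41 matched, 8 through synonyms, and Tdrd5p was not analysed here.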

Additional observations from a re-analysis of the deposited data

How the results depend on the processing

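Of the 10 genes, 3 had a conservative summit at a start. The count was 2 to 3 with either replicate left out, 3 in the second list from both replicates, and 1 (krimp) both with a 250 bp window and when the peak interval had to overlap the start, because the summits at tej and tud lie over 400 bp out. Counting bodies too, 5 fell to 3 with an IDR of at most 0.001 (tej, tud, vas; 9.82% of protein-coding genes) and to 3 (krimp, qin, vas) with the 250 bp window (17.8%) or the overlap (16.7%). Genes whose own start was nearest numbered 2 (13.8% of protein-coding genes), and 1 at the stricter IDR (tej, 6.66%), 1 with the 250 bp window (krimp, 13.3%), 1 with the overlap (krimp, 12.6%), 3 without replicate 1 (14%) and 1 without replicate 2 (12%). In the second list from both replicates such genes numbered 3 (krimp, tej and tud), against 17.2% of protein-coding genes. The krimp peak is missing without replicate 2. At an IDR of at most 0.001 the other pathway genes with a summit dropped from 11 to 4 and the protein-coding genes from 2541 to 1289, since 1100 of 2580 peaks remained. The q-value, the 1000 bp window and 1 peak per pair changed the call of none of the 10 genes, while the other pathway genes called numbered 8, 14 and 11 and the protein-coding genes 1941, 2860 and 2535, in that order. A promoter window of 200 bp centred on the start gave 5 genes with the Initiator core in place of 6 and 4 with the Ovo core in place of 3. It changed no count for the DRE, CGATA or Motif 1, and neither did summit windows of 50 or 200 bp. The summits with an Initiator core numbered 1 and 3 in those windows in place of 1, and those with an Ovo core 0, both counted after seeing the data. No paired analysis was possible because the study has 1 group. Depth is unknown, so a missing peak is not shown to be missing binding.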
